A study of Mus musculus with 15 samples.

Results

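The cardiac derivatives of induced expandable cardiovascular progenitor cells (ieCPCs) were compared with ieCPCs at passage 12 (P12), the later of both passages profiled. The comparison used the 3 libraries labelled CM and the 3 labelled ieCPC_P12, 6 of the 15 mouse RNA-seq libraries in the series, and 15680 of the 37991 genes in the count table: those on autosomes with enough counts to be tested. All libraries came from wildtype cells whose strain background mixes C57BL/6 with 129J/SvE. The cells began as mouse embryonic fibroblasts (labelled 2nd MEFs), were taken through a cardiac reprogramming protocol and were sorted as ieCPCs on day 13. The ieCPCs were then passaged in a basal medium with BACS, a set of factors acting on the BMP, activin, Wnt and FGF pathways (BMP4, activin A, the GSK3 inhibitor CHIR99021 and the FGF-receptor inhibitor SU5402). CM cells were ieCPCs kept for 25 days in a serum-free cardiac differentiation medium, so that the medium, the time in culture and the cell state all differ between the groups. The passage at which the ieCPCs entered differentiation is not given in the labels. The 3 ieCPC libraries of passage 3 (P3) are therefore set beside P12 where the passage bears on a result. The labels leave unsaid whether the 3 replicates of a group are separate cultures, and a p-value here speaks only to the spread between these libraries, which may be technical.

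A heart muscle cell contracts through sarcomeres, in which thick filaments of myosin pull on thin filaments of actin that are anchored at the Z-disc, with titin as the spring between Z-disc and M-band. Calcium released from the sarcoplasmic reticulum through the ryanodine receptor binds troponin and starts each contraction, and the pump SERCA2 returns it. A cardiovascular progenitor can give cardiomyocytes, smooth muscle cells and endothelial cells, and signals of the BMP, activin, Wnt and FGF pathways set when it divides and when it differentiates.

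After 25 days the CM libraries held the genes of the cardiac sarcomere, of calcium release and of cardiac ion channels mostly at higher levels than P12 ieCPCs, many of them far higher, and genes of fatty acid and oxidative metabolism mostly higher by smaller factors. Cell cycle genes and genes driven by Wnt, BMP and activin were mostly lower, genes driven by FGF and ERK were mostly higher, and smooth muscle genes went both ways, with Myh11, Actg2, Acta2 and Cnn1 among those that fell. The tested genes of epicardium, of macrophages and of fat cells were mostly higher as well. Of the 15680 genes tested, 4930 were called higher in CM (31.4%) and 4908 lower (31.3%), 62.7% in all, where called means a Benjamini-Hochberg adjusted p under 0.05 in edgeR (quasi-likelihood test). The median log2 fold change over all genes was -0.02. Against a change of 2-fold, 1876 genes passed as higher (12.0%) and 1008 as lower (6.43%). With 62.7% of genes called, a list of genes is read below against these shares, and no test was run on a list. In any list, genes with almost no counts in one group passed the count filter through the other group alone. Such genes could only come out higher in the group that holds their counts, and list counts and medians include them. How many of all genes lack overlap between the groups was not counted. A lack of overlap is therefore given below as a description of the named gene only.

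Depth was ample in both groups but the CM libraries were less alike. CM libraries held 28443230 to 29996464 counts and P12 libraries 21823056 to 23396690, of which autosomal genes took 11702277 to 13674904 and 15814740 to 17007798. The mitochondrial genome took 53.45%, 52% and 59.4% of all counts in CM replicates 1, 2 and 3, against 23.98% to 25.17% in P12. That share was 54.9% ± 3.92 (SD, n = 3) against 24.5% ± 0.63 (SD, n = 3), with no overlap and an exact permutation p of 0.1, 2-sided, the smallest that 3 against 3 libraries allow. Most of it was mitochondrial ribosomal RNA, at 46.3% ± 3.27 of all counts in CM and 21.5% ± 0.473 in P12 (SD, n = 3 each). Levels are therefore given as CPM (counts scaled to a fixed total of autosomal counts) after TMM scaling over the 15 libraries. Over genes above 10 CPM, the median coefficient of variation between replicates was 8.57% in CM and 4.4% in P12. CM replicate 3 held the most counts on sarcomere genes and CM replicate 2 the fewest: the Z-disc and M-band list summed to 24700, 17380 and 35100 CPM in replicates 1, 2 and 3. Most of that sum was Ttn. The thick filament list, which does not hold Ttn, summed to 4967, 3223 and 6102 CPM. CM replicate 3 also had the lowest summed smooth muscle level, at 3846 CPM against 4709 and 5018, and the highest summed cell cycle level, at 1947 CPM against 1178 and 1269. Without CM replicate 3, 10326 genes were called and all 21 tested Z-disc and M-band genes were still higher. These are bulk cultures, in which fewer cells of a type and less RNA per cell cannot be told apart.

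**Figure D1:**
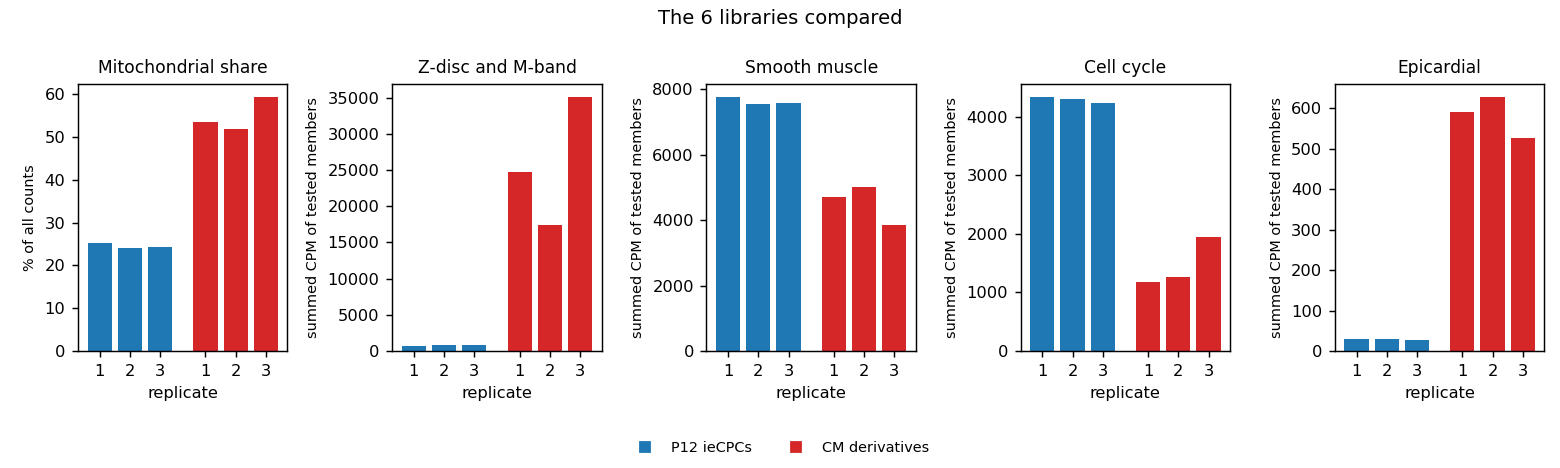
Mitochondrial share (percent of all counts) and the summed CPM of 4 gene lists in the 6 libraries, one bar per library, with P12 ieCPC replicates on the left and CM replicates on the right of each panel. CM replicate 3 has the highest mitochondrial share (59.4%), the highest Z-disc and M-band sum and, within CM, the lowest smooth muscle and the highest cell cycle sum.

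The promoters of sarcomere genes are shown first, because the CArG box, bound by serum response factor, and the MEF2 site, bound by MEF2 factors, are the sequences through which muscle genes are best known to be switched on. Promoters were RefSeq windows of 250 bases before to 50 bases after the start (GRCm38.p6, autosomes only), searched on both strands for exact matches. The 60 sarcomere genes are those of the thick filament, thin filament and Z-disc lists. A CArG box stood in 11 of 62 sarcomere promoters (17.7%) and in 494 of all 31396 (1.57%). Some genes have several windows, which can overlap, so promoters are not independent. In Ldb3 the same CArG box was counted in overlapping windows. By gene, a CArG box stood in 9 of 49 sarcomere genes and in 447 of all 25748. A MEF2 site stood in 10 of the 62 (16.1%) and in 973 of all (3.1%). The MCAT element CATTCC, bound by TEAD factors, stood in 20 of the 62 (32.3%) and in 4572 of all (14.6%). In the smooth muscle list, 0 of 15 promoters held a CArG box, 1 a MEF2 site and 6 an MCAT element (40%). Calcium handling promoters held 0, 1 and 0 of 15, and cell cycle promoters 1, 1 and 3 of 31. As written, the CArG and MEF2 patterns cannot share a base, so an overlap between them was not possible. The table gave promoters for 49 of the 60 sarcomere genes and 14 of the 22 smooth muscle genes, and it lacked Myh11, Actg2 and Tagln. Of the 9 sarcomere genes with a CArG box (Acta1, Actc1, Fhl2, Ldb3, Myh4, Myl3, Myl7, Myom1 and Nebl), 8 were tested, of which 7 were higher in CM and 1, Acta1, lower. Of the 9 with a MEF2 site (Fhl2, Mybpc3, Myh1, Myh4, Myh8, Myoz2, Synpo2l, Ttn and Xirp2), 8 were tested, of which 6 were higher and 1, Myh8, lower. Of the 20 with an MCAT element, 17 were tested, of which 15 were higher and 1 lower. With or without a motif, 12 of 16 tested thick filament genes, 11 of 15 thin filament genes and 21 of 21 Z-disc and M-band genes were higher. The genes with a motif are therefore not read as differing from the rest of these lists. The motif shares are descriptions of letters in a window, with no test, and MCAT was searched in addition to the motifs first chosen.

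The 150 bases before the start are printed for 6 promoters chosen because they hold a CArG or MEF2 match there, with that match in capitals. MCAT elements, which the printed stretches of Myl7 and Myl3 also hold, are left in small letters. Actc1 (chr2:114052876-114053025, minus strand), Myl7 (chr11:5898783-5898932, minus strand) and Myl3 (chr9:110763528-110763677, plus strand) each hold a CArG box. Mybpc3 (chr2:91117994-91118143, plus strand), Myoz2 (chr3:123034988-123035137, minus strand) and Myh8 (chr11:67276974-67277123, plus strand) each hold a MEF2 site. The first 5 belong to genes that rose in CM and the last to one that fell, so both directions are represented.
Actc1: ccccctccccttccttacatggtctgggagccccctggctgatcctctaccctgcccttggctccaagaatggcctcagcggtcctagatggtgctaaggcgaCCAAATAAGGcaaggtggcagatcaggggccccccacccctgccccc
Myl7: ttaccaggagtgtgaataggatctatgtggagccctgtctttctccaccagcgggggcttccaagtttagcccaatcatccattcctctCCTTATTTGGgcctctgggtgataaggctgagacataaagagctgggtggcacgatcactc
Myl3: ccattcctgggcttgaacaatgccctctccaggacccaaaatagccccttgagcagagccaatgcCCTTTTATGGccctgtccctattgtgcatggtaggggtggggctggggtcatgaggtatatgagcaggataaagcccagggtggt
Mybpc3: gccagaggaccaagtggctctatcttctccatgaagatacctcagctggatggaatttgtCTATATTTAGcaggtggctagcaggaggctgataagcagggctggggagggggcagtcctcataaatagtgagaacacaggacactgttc
Myoz2: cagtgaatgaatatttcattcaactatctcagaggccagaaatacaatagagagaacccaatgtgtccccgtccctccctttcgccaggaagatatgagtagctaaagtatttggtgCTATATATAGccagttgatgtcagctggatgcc
Myh8: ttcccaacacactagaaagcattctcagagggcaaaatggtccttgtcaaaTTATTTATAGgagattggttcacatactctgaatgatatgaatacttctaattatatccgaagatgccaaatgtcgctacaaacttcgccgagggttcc
The matched box begins 47 bases before the start in Actc1, 61 in Myl7 and 85 in Myl3, and the MEF2 match begins 33 bases before it in Myoz2, 90 in Mybpc3 and 99 in Myh8.

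The 4 genes that mark the comparison split by muscle type. Actc1, the cardiac actin of the thin filament (chromosome 2, bases 113873018 to 113879284, mm9), stood at 2979, 2151 and 5192 CPM in the CM libraries and at 55.16, 69.16 and 56.52 CPM in P12. Tnnt2, cardiac troponin T, which ties troponin to tropomyosin (chromosome 1, bases 137737452 to 137748837), was at 2890, 2117 and 3496 CPM against 10.84, 12.06 and 11.24. Both were high in every CM library, highest in replicate 3, and the groups did not overlap. The log2 fold changes were 5.83 ± 0.31 (SE) for Actc1 (57.05-fold, edgeR adjusted p = 5.05e-08) and 7.96 ± 0.20 for Tnnt2 (248.7-fold, edgeR adjusted p = 3.27e-10). Myh11, the smooth muscle myosin heavy chain (chromosome 16, bases 14194620 to 14291501), ran the other way at 50.86, 32.48 and 19.83 CPM in CM against 124.4, 120.3 and 133.5 in P12. Actg2, the enteric smooth muscle actin (chromosome 6, bases 83462899 to 83486259), was at 34.16, 29.76 and 12.75 CPM against 321.4, 303.3 and 303.7. For these genes every P12 library was above every CM library, and CM replicate 3 was the lowest of all. Myh11 fell by 1.87 on the log2 scale (SE 0.23, edgeR adjusted p = 3.95e-05) and Actg2 fell by 3.59 (SE 0.245, edgeR adjusted p = 3.56e-07).

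Set beside their levels in P3, the markers did not move along one line. Tnnt2 stood at 50.64 ± 4.82 CPM (SD, n = 3) in P3 and was lower in P12, whereas Actc1 rose from 13.79 ± 1.07 in P3 to 60.28 ± 7.72 in P12. Myh11 (16.19 CPM in P3) and Actg2 (75.89 CPM in P3) were both higher in P12, by 7.78-fold and 4.08-fold. The CM level of Myh11, 34.39 ± 15.6 CPM, thus lay between those of both passages. Between P12 and P3, 5986 of 16503 genes were called (36.3%), 2834 higher (17.2%) and 3152 lower (19.1%) in P12. Under upper-quartile scaling that split was 3578 higher and 2485 lower. Because P12 enters both contrasts, values for CM against P12 and for P12 against P3 are given side by side and not related to each other.

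**Figure D2:**
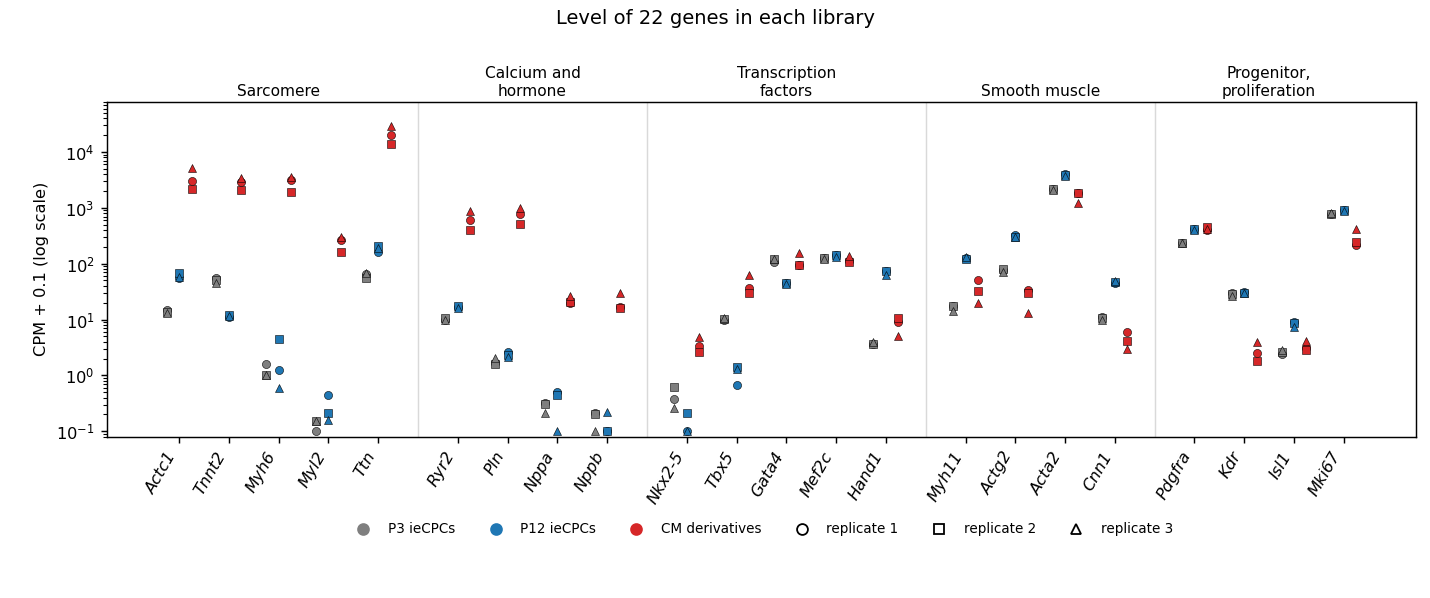
Level of 22 genes in each P3 ieCPC, P12 ieCPC and CM library, as CPM plus 0.1 on a log axis, one point per library with the replicate number as its shape. Cardiac sarcomere and calcium genes sit orders of magnitude higher in CM (Tnnt2 at 2117 to 3496 CPM) than in P12, while Myh11 and Actg2 sit highest in P12.

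In the thick filament, 16 of 19 listed genes were tested, 12 were higher in CM, 3 lower and 1 not called, with a median log2 fold change of 4.93 against -0.02 for all genes. Myh6, the alpha myosin heavy chain of the adult mouse heart, stood at 3195, 1902 and 3511 CPM in CM and at 1.166, 4.284 and 0.4836 CPM in P12. The groups are far apart, and P12 replicate 2 is the highest of the progenitor libraries. Its log2 fold change was 10.47 ± 0.47 (edgeR adjusted p = 1.44e-08) and 11.74 without P12 replicate 2. Myh7, the beta heavy chain of fetal heart and its neighbour on chromosome 14, was at 505.7, 371.6 and 888.6 CPM against 0.8163, 1.578 and 0.7858, with a log2 fold change of 9.09 ± 0.42 (edgeR adjusted p = 1.72e-08). The light chains moved with them: Myl3, an essential light chain of ventricle, was at 362.9, 246.3 and 350.6 CPM against 0.1813 to 0.2915, and Myl2, the ventricular regulatory light chain, at 261.5, 164.5 and 298.9 CPM against 0.06045 to 0.3498. Myl7, the atrial regulatory light chain, was at 93.15, 98.17 and 209 CPM against 0 to 0.2915, and Mybpc3, the cardiac myosin-binding protein C, at 214.6, 166.4 and 293.9 CPM against 0.1749 to 0.4509. CM replicate 2 was the lowest CM library for Myl2, Myl3 and Mybpc3 and replicate 3 was the highest for Myl2, Myl7 and Mybpc3. Myl2, Myl3, Myl7 and Mybpc3 had few or no counts in P12, passed the count filter through CM alone and could only come out higher. The list median was 3.74, 3.92 and 3.44 without CM replicate 1, 2 or 3, when 18 genes were tested, and 2.78 with no filter on low counts.

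The 3 thick filament genes that fell were Myh3, Myh8 and Mybpc1, while others known from embryonic or skeletal muscle rose (Myl4, 50.13-fold, and Myl1, 6.88-fold) or were not called (Myh1). Myh3, the embryonic heavy chain, stood at 1.259, 0.5614 and 2.514 CPM in CM against 22.39, 21.36 and 28.29 in P12, and Myh8, the perinatal heavy chain, at 5.958, 11.63 and 10.15 CPM against 35.57, 39.12 and 45.64. Mybpc1, the slow skeletal myosin-binding protein C, was at 0.2518, 0 and 0.2793 CPM against 1.807, 1.86 and 2.599. None of the 3 overlapped between groups. The fold was 17.02 for Myh3 (edgeR adjusted p = 4.85e-07), 4.33 for Myh8 (3.19e-06) and 11.64 for Mybpc1 (0.000134), all lower in CM. In P3 the same genes stood at 1.457, 8.513 and 0.07196 CPM, and each was called higher in P12 than in P3. They were picked for falling from P12, whose libraries enter that contrast as well. Without CM replicate 2, when 18 genes of the list were tested in place of 16, 5 were called lower, and 3 of them passed the 2-fold test as before.

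In the thin filament, 15 of 17 listed genes were tested, 11 were higher, 3 lower and 1 not called, with a median of 3.3. Tnni3, cardiac troponin I, stood at 225.1, 143.4 and 206.8 CPM in CM against 0.2332, 0.7891 and 0.3022 in P12. Tnni1, the slow skeletal troponin I used by fetal heart, was at 87.36, 53.74 and 128.7 CPM against 4.198, 2.931 and 2.358. Both rose with no overlap, by 8.72 ± 0.28 and 4.82 ± 0.33 on the log2 scale (edgeR adjusted p = 1.52e-09 and 3.48e-07), and Tnni3 by 9.44 without P12 replicate 2. Nebl, which encodes nebulette, the cardiac relative of nebulin, was at 287.9, 170.6 and 320.9 CPM against 3.557 to 3.929. Tpm1, the alpha tropomyosin of heart, rose from a high start, at 3063, 2594 and 3214 CPM against 1493, 1494 and 1504, a 1.98-fold difference (edgeR adjusted p = 2.76e-06). Tpm2, the beta tropomyosin, fell 2.29-fold, Neb, nebulin itself, stood at 16.84 to 22.34 CPM in CM against 33.93 to 41.88 and was called lower, and Acta1, the skeletal actin, fell 2.47-fold from 6.10 ± 0.07 CPM to 2.50 ± 1.65 (SD, n = 3). Lmod2, a leiomodin that extends cardiac thin filaments, was at 59.5, 49.81 and 157 CPM against 1.166 to 1.693, with CM replicate 3 far above the others. Its log2 fold change of 5.95 became 5.26 without that library, and that of Tnnt1, the slow skeletal troponin T, went from 3.3 to 2.4. Tnnc1, the gene of cardiac troponin C, had 2 counts over the CM libraries and 10 over P12 and was not tested. It is usually abundant in heart muscle, the annotation and strand setting of the counting are not given in the sources used here, and these counts are not read as absence of expression.

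Isoform use could be compared as CPM per kilobase, since genes of a family differ in length. Myh6 made up 89.4%, 87.3% and 84.1% of Myh6 plus Myh7 in CM, a mean of 86.9% ± 2.68 (SD, n = 3). Among 6 myosin heavy chains (Myh6, Myh7, Myh7b, Myh3, Myh8 and Myh11), Myh6 took 85.2% ± 2.16 in CM and 1.16% ± 1.21 in P12, where Myh11 led at 19 ± 1.02 CPM per kilobase. Of the 4 muscle actins, Actc1 took 63.9%, 55.5% and 82.2% in CM and 1.53% ± 0.21 in P12, and Acta2, the vascular smooth muscle actin, took 32.2% ± 13.3 and 90.2% ± 0.17. CM replicate 3, with the highest Actc1 share, had the lowest Acta2 share at 17.6%. Tnni3 made up 66.2% ± 6.46 of Tnni1 plus Tnni3 in CM, and Tpm1 made up 86.0% ± 4.62 of Tpm1 plus Tpm2 against 57.8% ± 1.20 in P12. Myl2 was 45.9%, 33.6% and 30.2% of Myl2 plus Myl7, so that the atrial light chain was the larger part per length in each CM library. That order rests on the gene lengths used, 1950 bases for Myl2 and 590 for Myl7. In CPM, without division by length, Myl2 stood above Myl7 in each CM library. Reads that match near-identical copies, such as Myh6 and Myh7 or the actins, could be split between them by the counting, and these shares carry that uncertainty.

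**Figure D3:**
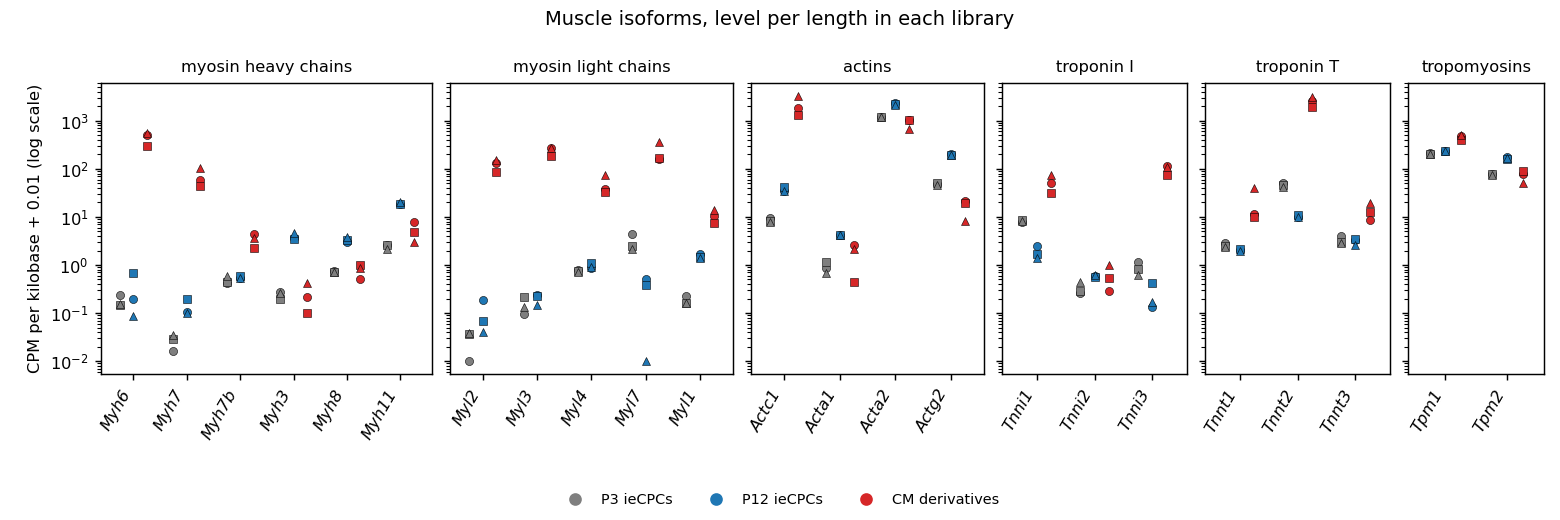
CPM per kilobase plus 0.01, on a log axis, of the members of muscle protein families in each P3 ieCPC, P12 ieCPC and CM library, one point per library with the replicate number as its shape. Actc1 rises and Actg2 falls in CM within the actins, and Myh6 stands highest in CM and Myh11 in P12 among the myosin heavy chains.

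At the Z-disc and M-band, 21 of 24 listed genes were tested and all 21 were higher in CM, 20 of them past the 2-fold test, with a median of 5.31. Ttn, which encodes titin, stood at 20550, 14110 and 29720 CPM in CM against 161.2, 207.3 and 194.7 in P12, and took 1.924%, 1.286% and 2.728% of all autosomal counts in the 3 CM libraries. Every CM library was above every P12 library, and the rise was 6.84 ± 0.28 on the log2 scale (114.3-fold, edgeR adjusted p = 7.37e-09). Actn2, the alpha-actinin that crosslinks thin filaments at the Z-disc, was at 225.2, 172.6 and 399.4 CPM against 5.772 to 7.384, and Ankrd1, a stretch-responsive partner of titin, at 1215, 858.7 and 1532 CPM against 4.594 to 5.306. Myom2, an M-band protein of adult heart, was at 235.6, 155.5 and 238.3 CPM against 0.583 to 1.813, and Xirp2, of the intercalated disc, at 32.9, 18.05 and 40.03 CPM against 0 to 0.1749, a log2 fold change of 8.45 that was 9.63 without P12 replicate 1. Xirp2 passed the count filter through CM alone and could only come out higher. Des, the muscle intermediate filament desmin, rose 5.17-fold and Cryab, its chaperone, 2.37-fold, and Pdlim5, a Z-disc adaptor, had the smallest rise of the list, at 1.95-fold. Nrap, a further listed gene of heart muscle, had 0 counts in the 6 libraries, to which the limit given for Tnnc1 applies.

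The calcium handling list had 15 genes higher and 3 lower of 18 tested, with a median of 1.63. Ryr2, the ryanodine receptor of heart, stood at 613.8, 396.8 and 894.4 CPM in CM against 15.9 to 17.25 in P12 (5.25 ± 0.27 on the log2 scale, edgeR adjusted p = 4.04e-08). Pln, phospholamban, the brake on the calcium pump, was at 787.7, 504.1 and 1004 CPM against 1.995 to 2.565, and Atp2a2, the pump SERCA2, at 2061, 1397 and 2760 CPM against 370.9 to 386.2. No library of one group reached the other for these 3 genes, and replicate 2 was the lowest and replicate 3 the highest CM library. Pln rose 335.2-fold and Atp2a2 5.44-fold (edgeR adjusted p = 2.45e-09 and 1.15e-06). Casq2 and Trdn, the calsequestrin and triadin of the release complex, stood at 145.7 to 306.5 and 84.13 to 216.8 CPM in CM. In P12 they were at 2.973 to 3.438 and 0.1749 to 1.466 CPM. Their log2 fold changes were 6.05 and 7.65, the latter 8.97 without P12 replicate 2. Sln, sarcolipin, a regulator of the pump in atrium, had 213 counts in CM and 1 in P12, a ratio of 311.9 (95% counting interval 55.38 to 12380). The 3 genes that fell were calcium channel subunits: Cacna1g and Cacna1h, the T-type channels, at 11.31 to 22.06 and 8.979 to 11.26 CPM against 60.81 to 66.68 and 19.01 to 19.83, and Cacna2d1, an auxiliary subunit, at 48.76 to 56.7 CPM against 66.07 to 75.56. Cacna1c, the L-type channel of ventricle, rose 2.84-fold.

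Of 17 tested ion channel and connexin genes, 13 were higher and 2 lower. Kcnj5, part of the acetylcholine-gated potassium channel of atrium and pacemaker, was at 106.4, 87.34 and 177.3 CPM in CM against 1.399 to 2.418 in P12, with complete separation. Hcn4, a pacemaker channel, was at 3.048 to 10.24 CPM against 2.332 to 2.478. Kcnj2, the inward rectifier that holds the resting potential, fell 2.53-fold, from 19.76 ± 1.23 CPM in P12 to 7.83 ± 1.15 in CM, with P3 at 1.15 ± 0.05 CPM (SD, n = 3 each). The other gene called lower was Kcna5, at 0.1604 to 0.8379 CPM against 0.9672 to 1.224. The number called lower was 4 without CM replicate 3, and 1 without CM replicate 1 or 2 or P12 replicate 1 or 2. Gja1, which encodes connexin 43, rose 2.36-fold, while Gja5 stood at 1.363 to 2.7 CPM in CM and 2.418 to 2.987 in P12 and was not called.

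Natriuretic and cardiac stress genes were higher for 11 of 12 tested and lower for 1, Acta1. Nppa, atrial natriuretic peptide, stood at 19.8, 20.61 and 26.07 CPM in CM against 0.4081, 0.3382 and 0 in P12, a log2 fold change of 6.41 ± 0.34 (edgeR adjusted p = 5.04e-08). Nppb, its ventricular counterpart, had 716 counts in CM and 2 in P12, a ratio of 524.2 (95% counting interval 144.6 to 4337). All 12 genes of creatine kinases, carriers and myoglobin were higher. Mb, myoglobin, was at 104.6, 58.79 and 73.08 CPM against 0, 0.2255 and 0.06045, and Ckm, muscle creatine kinase, at 23.5, 15.8 and 21.23 CPM against 0.05637 to 0.1749. Cox6a2, the heart and muscle form of a cytochrome oxidase subunit, was at 106.5, 62.32 and 51.39 CPM against 0.2818 to 0.4836. Mb, Ckm and Cox6a2 were highest in CM replicate 1, and the groups did not overlap. Each had few or no counts in P12, passed the count filter through CM alone and could only come out higher.

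Of 31 cardiac transcription factors tested, 20 were higher, 9 lower and 2 not called (Irx5 and Smarcd3), with a median of 0.94. Tbx5, which acts in the atria, the left ventricle and the conduction system, stood at 36.84, 29.68 and 63.49 CPM in CM against 0.583, 1.296 and 1.209 in P12, a log2 fold change of 5.38 ± 0.35 (edgeR adjusted p = 2.55e-07). Nkx2-5, the early cardiac homeobox factor, was low in both groups, at 3.189, 2.486 and 4.748 CPM against 0, 0.1127 and 0, or 120 counts against 2, a ratio of 87.86 (95% counting interval 23.8 to 733.8). Irx4, a ventricular factor, had 260 counts in CM and 0 in P12, and was at least 128.4-fold higher against a floor of 3 counts over the group. Hopx, a cofactor without DNA binding of its own, was at 47.25, 29.6 and 66.1 CPM against 1.184 to 1.283, and Prox1 at 101.5, 71.62 and 135.3 CPM against 6.468 to 7.553. Gata4, Gata6 and Mef2a rose less, by 2.57-fold, 2.15-fold and 2.45-fold. Tbx20 rose 1.38-fold, an edgeR adjusted p of 0.0118 that was lost without P12 replicate 1. Myocd, myocardin, the partner of serum response factor, was at 32.31, 28.31 and 79.88 CPM against 6.77 to 9.695, with CM replicate 3 well above the others. Its log2 fold change of 2.48 was 1.86 without that library.

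The 9 factors that fell include those of the progenitor field and of the boundary and pacemaker tissue. Hand1, of the early left ventricle, stood at 8.812, 10.51 and 4.934 CPM in CM against 74.69, 72.88 and 62.99 in P12. Isl1, the marker of the second heart field, was at 2.937, 2.727 and 4.003 CPM against 8.979, 8.681 and 7.254. P12 was above CM in every library for both. Their falls were 8.59-fold and 2.59-fold (edgeR adjusted p = 1.34e-07 and 6.93e-05). Tbx3, which represses the working muscle program in pacemaker tissue, fell 4.67-fold, and the Notch effectors Hey1 and Hey2 fell 18.58-fold and 6.38-fold. Tbx2 and Hand2 stood at 7.217 to 9.403 and 23.83 to 28.71 CPM in CM against 17.41 to 18.43 and 48.36 to 52.65 in P12. Mef2c was at 108 to 138.6 CPM against 134.4 to 144.2, overlapped between groups, and its adjusted p of 0.0467 by edgeR rose above 0.05 with DESeq2 and in 7 further alternatives. Several of these factors also differed between the passages: Hand1 stood at 3.682 CPM in P3 and Isl1 at 2.532, both lower than in P12, while Tbx5 stood at 10.18 and Gata4 at 115.6 CPM, both higher than in P12.

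The smooth muscle list did not move one way. Of 22 genes, 8 were higher, 9 lower and 5 not called, with a median of 0.02. Among the genes that fell besides Myh11 and Actg2, Acta2 stood at 1812, 1861 and 1222 CPM in CM against 4086, 3906 and 3774 in P12, Cnn1, calponin, at 5.958, 4.09 and 2.886 CPM against 44.37, 47.01 and 49.02, and Tagln, transgelin, at 155.3, 139.6 and 95.14 CPM against 233.5, 223.5 and 234.7. CM replicate 3 was the lowest library for each of these 5 genes, and no CM library reached a P12 library. Acta2 fell 2.40-fold and Cnn1 10.76-fold (edgeR adjusted p = 1.43e-05 and 4.09e-08). Rgs4, a regulator of G protein signalling, fell 6.59-fold. Mylk, myosin light chain kinase, rose instead, at 457.9, 497.9 and 390 CPM against 151.9, 158.4 and 170.6, as did Sh3bgr, Ptgis and Mustn1, by 15.7-fold, 5.75-fold and 5.95-fold. Myocd and Sh3bgr are also expressed in heart muscle. Smtn, Lmod1, Kcnmb1, Rgs5 and Nrip2 were not called, and overlapped. Between the passages, 14 of the 22 genes were higher in P12 and 3 lower.

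**Figure D4:**
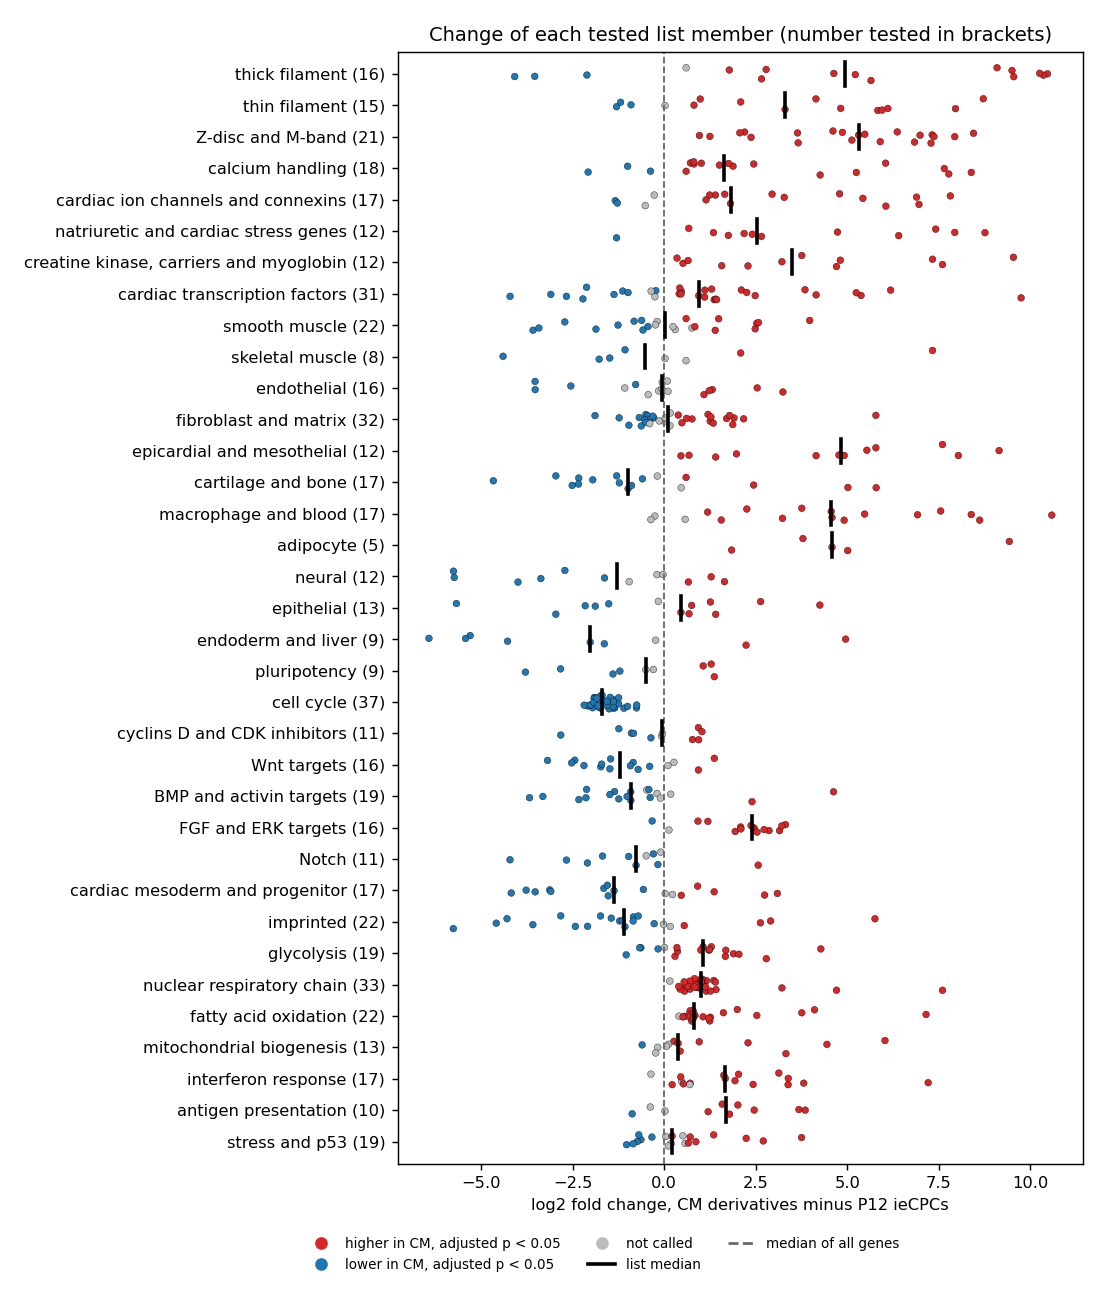
Log2 fold change of each tested member of the gene lists, CM derivatives minus P12 ieCPCs, one point per gene, coloured by its call, with the list median as a bar and the median of all genes (-0.02) as a dashed line. Members of the sarcomere lists lie mostly to the right and those of the cell cycle list to the left, and points for genes with 0 counts in one group depend on the prior count of the fit.

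Cell types outside the muscle lineages were read from their markers. The 14 cardiomyocyte markers were all higher, summing to 21870 to 45340 CPM in CM against 261.3 to 328.4 in P12. Ttn alone was the larger part of both sums, and Actc1 and Tnnt2, which mark the comparison, are among the 14. Skeletal muscle markers were near 0 in CM, at 1.117 to 2.014 CPM in sum against 4.397 to 5.622. Endothelial markers summed to 25.99 to 34.35 CPM against 52.48 to 53.32, a sum in which Kdr alone had a mean of 30.47 CPM in P12. Kdr, the VEGF receptor that also marks cardiac mesoderm, fell from 31.48, 29.59 and 30.35 CPM to 2.434, 1.684 and 3.91 (11.54-fold, edgeR adjusted p = 7.11e-08), with no overlap. Fibroblast markers summed to 30540 to 35750 CPM in CM and 28240 to 29010 in P12, with the CM libraries all above the P12 libraries but by a small factor. Whether the muscle genes and the other markers share cells was not tested.

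Epicardial and mesothelial genes were higher for all 12 tested, with a median of 4.84. The epicardium is the outer layer of the heart. Upk3b, a mesothelial membrane protein, stood at 144.4, 154.9 and 124.5 CPM in CM against 0.7579, 0.6764 and 0.7254 in P12, and Wt1, the zinc finger factor of epicardium, at 30.38, 28.23 and 35.66 CPM against 0.8163, 1.184 and 1.088. Msln, mesothelin, was at 68.65, 73.15 and 38.08 CPM against 0.1749, 0.1127 and 0. With almost no counts in P12, Msln passed the count filter through CM alone and could only come out higher. All CM libraries were high, and unlike the sarcomere genes Upk3b and Msln were lowest in CM replicate 3. The folds were 194.1 for Upk3b and 30.21 for Wt1 (edgeR adjusted p = 7.57e-11 and 2.24e-09). Msln had a log2 fold change of 9.15, or 9.80 without P12 replicate 1. In P3, Upk3b stood at 9.397, Wt1 at 12.82 and Msln at 0.7004 CPM, and 8 of the 12 genes were lower in P12 than in P3.

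Macrophage and blood genes were higher for 14 of 17 tested and lower for none, 0 of 17, with a median of 4.56. Emr1, the F4/80 antigen, had 476 counts in CM and 0 in P12, at least 226.9-fold higher against the floor of 3 counts over the group, at 10.91, 21.25 and 7.541 CPM. Lyz2, lysozyme, stood at 194.5, 257.9 and 200.4 CPM against 23.61, 24.75 and 21.28, and Csf1r, the receptor of the macrophage growth factor, at 7.469, 10.75 and 10.15 CPM against 2.902 to 3.615. CM replicate 2 was the highest library for all 3. The complement genes C1qa, C1qb and C1qc had 0 counts in P12 and 8, 102 and 57 counts in CM. The 8 markers summed to 232.1 to 305 CPM in CM against 33.97 to 37.37 in P12. Of 9 listed adipocyte genes 5 were tested, and all 5 were higher too: Lpl, lipoprotein lipase, which heart muscle also makes, was at 2724, 3144 and 2654 CPM against 117.4 to 119.4. Fabp4, a lipid carrier of fat cells and capillaries, had 683 counts against 1. Adipoq, adiponectin, had 53 counts against 2, a ratio of 38.8 (95% counting interval 10.23 to 328.7). Genes with almost no counts in P12, such as Emr1, Fabp4 and Adipoq, passed the filter through CM alone and could only come out higher. The 3 fixed adipocyte markers (Adipoq, Plin1 and Cidec), of which 1 was tested, summed to 2.182 to 5.865 CPM in CM against 0 to 0.1749 in P12.

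Fibroblast and matrix genes were divided, with 14 higher, 12 lower and 6 not called of 32. Fn1, fibronectin, stood at 13290, 15340 and 10670 CPM in CM against 5305, 5593 and 5595 in P12, and Dcn, decorin, at 4300, 5541 and 5174 CPM against 1420, 1387 and 1297. Mmp2, a collagen-degrading protease, rose 4.49-fold. Fibrillar collagen genes went both ways, Col1a1 at 4847 to 5404 CPM against 7300 to 7557 and Col3a1 at 7961 to 9061 CPM against 6508 to 6514, and Mfap4, a microfibril protein, fell 3.71-fold. Of 17 cartilage and bone genes, 11 were lower and 4 higher. Hapln1, which links hyaluronan to aggrecan, fell 25.5-fold, from 43.73 ± 2.41 to 1.70 ± 0.31 CPM (SD, n = 3). Spp1, osteopontin, stood at 133.3, 131.6 and 165.5 CPM against 2.041 to 3.157, and Comp, a cartilage matrix protein, at 122.4, 162.7 and 94.59 CPM against 3.673 to 4.228, both higher without overlap. Neural genes were lower for 6 of 12 tested and higher for 3, and only 1 was higher without P12 replicate 1. Stmn2, a neuronal tubulin regulator, went from 44.02, 44.53 and 42.38 CPM to 0.7553, 0.9625 and 0.6517. Endoderm and liver genes were lower for 6 of 9 tested, higher for 2 and not called for 1. Among those that fell, Apob, the lipoprotein of liver and yolk sac, stood at 0.5614 to 1.396 CPM against 37.84 to 43.01. The 2 that rose were Ttr and Trf, by 2.23 and 4.96 on the log2 scale.

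Every one of the 37 cell cycle genes was lower in CM, 29 of them past the 2-fold test, with a median of -1.70. Mki67, present in dividing cells, stood at 219.9, 244.5 and 414.7 CPM in CM against 915.4, 921.4 and 874.2 in P12 (3.09-fold lower, edgeR adjusted p = 2.5e-05). Plk1, a kinase of mitosis, was at 8.308, 7.218 and 9.682 CPM against 38.89, 39.46 and 36.27, and Ccne1, the cyclin of S phase entry, at 5.958, 4.732 and 6.331 CPM against 24.6, 24.41 and 23.27. All CM libraries were below all P12 libraries, and CM replicate 3 was the highest of the CM libraries for each. Pcna fell only 1.69-fold. Without CM replicate 3 all 37 were still lower, 34 past the 2-fold test. Among 11 D cyclins and CDK inhibitors, 4 were higher and 5 lower. Cdkn1c, an imprinted inhibitor, fell from 1926, 1819 and 1868 CPM to 257.6, 282.8 and 248.8 (7.11-fold, edgeR adjusted p = 4.71e-10), while Cdkn2b stood at 39.27 to 48.92 CPM in CM against 20.01 to 23.5.

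Known targets of the BACS pathways were read as 3 lists. Of 16 Wnt targets tested, 12 were lower, 2 higher (Ccnd1 and Myc) and 2 not called, with a median of -1.20. Axin2, the classic feedback target of Wnt and beta-catenin, stood at 4.867, 5.213 and 4.562 CPM in CM against 25.07, 25.03 and 30.04 in P12, and Lef1, a nuclear partner of beta-catenin, at 2.098, 3.208 and 2.607 CPM against 22.39, 26.44 and 23.82. The groups were fully apart. Axin2 fell 5.45-fold and Lef1 9.13-fold (edgeR adjusted p = 4.71e-08 and 2.86e-08). Of 19 BMP and activin targets, 13 were lower, 2 higher and 4 not called, with a median of -0.92. Msx1 and Msx2, homeobox targets of BMP, fell 9.98-fold and 12.84-fold, from 28.15 ± 1.46 and 16.17 ± 1.33 CPM to 2.80 ± 0.42 and 1.24 ± 0.38 (SD, n = 3 each). Among those that rose, Grem1, a secreted BMP antagonist, stood at 74.52, 107.6 and 128 CPM against 18.6 to 21.05. Id1 and Id3, further BMP targets, were not called.

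FGF and ERK targets ran opposite, with 14 of 16 tested higher, 1 lower and 1 not called, and a median of 2.40. Dusp6, the phosphatase that ERK signalling induces against itself, stood at 61.93, 43.07 and 55.02 CPM in CM against 5.947, 5.749 and 4.352 in P12, and Spry2, an inhibitor of receptor tyrosine kinase signals, at 54.63, 60.79 and 75.5 CPM against 9.27, 6.031 and 6.166. Fos, an immediate early gene, was at 277.6, 239 and 247 CPM against 42.56, 38.39 and 34.4. Each separated the groups without overlap, and the rises were 9.93-fold for Dusp6 and 8.88-fold for Spry2 (edgeR adjusted p = 2.9e-08 and 6.8e-08). The gene called lower was Il17rd, at 22.62 to 25.34 CPM against 28.97 to 31.07. In P3 these genes stood between P12 and CM, with Dusp6 at 20.11, Spry2 at 21.98 and Fos at 132.2 CPM, and 14 of the 16 were lower in P12 than in P3, with 0 higher. Notch genes were lower for 8 of 11 and higher for 1, Jag2, a ligand. Notch3, the receptor of vascular smooth muscle, fell 4.29-fold.

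**Figure D5:**
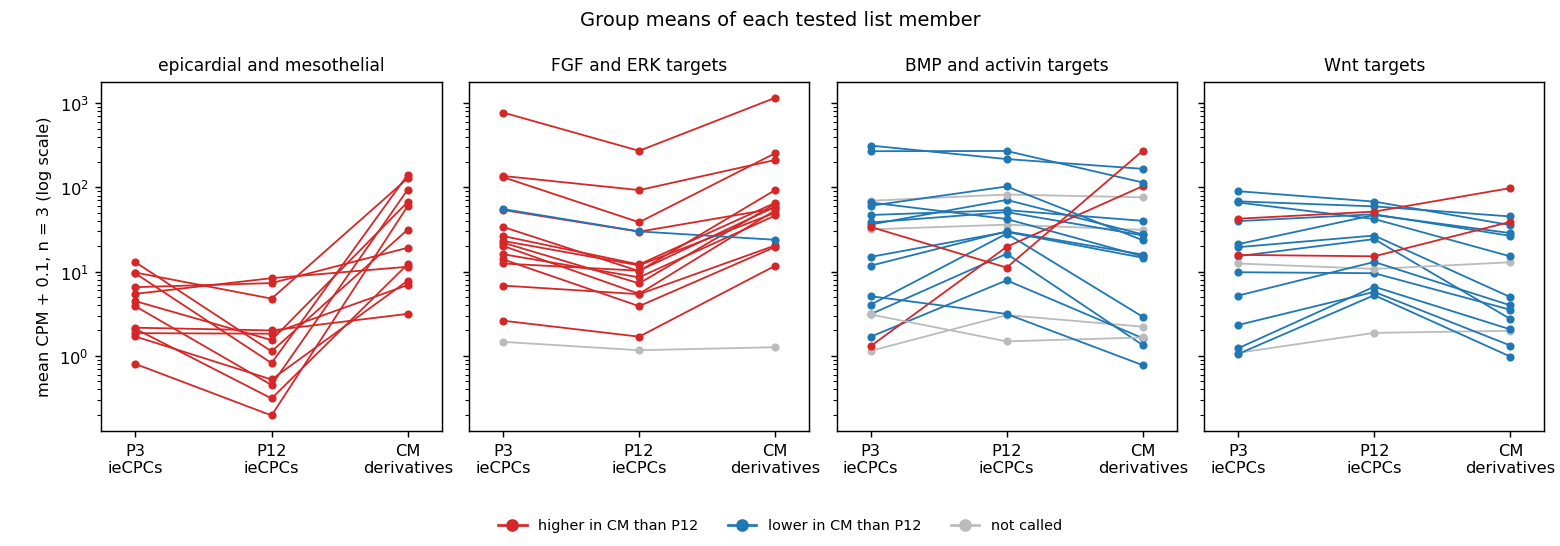
Group means (n = 3) in P3 ieCPCs, P12 ieCPCs and CM derivatives, as CPM plus 0.1 on a log axis, for each tested member of 4 lists, one line per gene coloured by its call in CM against P12. Most FGF and ERK targets and epicardial genes are lowest in P12, while most BMP, activin and Wnt targets are higher in P12 than in CM.

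Mesoderm and progenitor genes were lower for 10 of 17 tested, higher for 5 and not called for 2. Eomes, a T-box factor of early mesoderm, stood at 0.3357, 0.0802 and 0.6517 CPM in CM against 7.463, 6.313 and 5.32 in P12, and Cxcr4, a receptor of migrating progenitors, at 0.4196, 0.2406 and 0.4655 CPM against 3.382, 4.002 and 2.539. Both were close to the counting floor in CM and apart from P12, at log2 fold changes of -4.18 and -3.13 (edgeR adjusted p = 3.03e-06 and 1.64e-05), the first -4.90 without CM replicate 3. Pdgfra, a receptor of mesodermal and fibroblast cells, was at 407.5, 447.9 and 411 CPM against 410.8, 425 and 408.9, overlapped and was not called, with a log2 fold change of 0.02 ± 0.06. Mstn, myostatin, fell 2.89-fold to 13.51 ± 1.60 CPM, after 635.3 ± 22.45 in P3 and 39.08 ± 1.46 in P12 (SD, n = 3 each). Bmp4 rose 1.88-fold and Osr1 6.68-fold.

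Among 22 imprinted genes, 16 were lower, 4 higher and 2 not called. Igf2, the fetal growth factor, stood at 8361, 8339 and 8775 CPM in CM against 20140, 20210 and 19000 in P12 (2.33-fold lower, edgeR adjusted p = 3.59e-07), and Peg3, a zinc finger gene, fell 4.28-fold. Zim1, its neighbour, was at 20.06, 18.93 and 21.6 CPM against 395.8, 410.4 and 384.7, and Nnat, neuronatin, at 11.92, 15.08 and 9.682 CPM against 306.7, 310 and 273.7, each with no overlap. The noncoding RNAs of the Dlk1 cluster on chromosome 12 went the other way. Meg3 stood at 33.4, 57.59 and 36.31 CPM in CM against 0.5247, 0.8455 and 0.9672 in P12, and Rian at 35.08, 40.66 and 31.37 CPM against 4.314, 4.791 and 5.199. Both rose with no overlap, by 54.06-fold and 7.49-fold (edgeR adjusted p = 3.29e-08 and 1.66e-08). In P3 they stood at 95.14 ± 2.79 and 114.9 ± 1.65 CPM (SD, n = 3), above the level of both later groups. Dlk1, the coding gene of that cluster, was at 297.3 to 347.4 CPM in CM and 666 to 684.8 in P12.

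Metabolic genes were mostly higher, with smaller median changes than the sarcomere lists. Of 33 nuclear genes of the respiratory chain tested, 32 were higher, 0 lower and 1 not called, with a median of 0.99, and 7 passed the 2-fold test. Atp5b, the catalytic subunit of ATP synthase, stood at 4034, 3051 and 4005 CPM in CM against 1667, 1671 and 1729 in P12. Fatty acid oxidation genes were higher for 21 of 22, with a median of 0.82. Cd36, the fatty acid transporter, was at 114.6, 74.83 and 138.2 CPM against 0.6996, 1.127 and 0.4231, and Pdk4, which turns pyruvate away from oxidation, at 85.09, 99.85 and 85 CPM against 4.473 to 5.714. Both separated the groups, by 142.3-fold and 17.2-fold (edgeR adjusted p = 1.13e-08 and 6.05e-10). Ppargc1a, the coactivator that drives mitochondrial biogenesis, was at 93.07, 70.26 and 128.6 CPM against 1.283, 1.635 and 1.511. Tfam, the packaging factor of mitochondrial DNA, was at 29.23 to 32.48 CPM against 29.15 to 31.13 and was not called. Glycolysis genes were higher for 14 of 19 and lower for 4. Ldhb, the lactate dehydrogenase of heart, rose 6.91-fold and Aldoc 19.39-fold, while Slc2a1, the glucose transporter of growing cells, fell 2.06-fold. The higher mitochondrial share of counts in CM moved with this group, and its part in these results was not tested.

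Interferon response genes were higher for 14 of 17 tested and lower for 0, with a median of 1.67. Ifih1, a sensor of double-stranded RNA, stood at 51.86, 47 and 41.06 CPM in CM against 4.314, 4.566 and 4.473 in P12 (10.47-fold, edgeR adjusted p = 2.84e-09), and Ifit1, an antiviral effector, at 32.9, 27.59 and 17.97 CPM against 2.599 to 3.551. CM replicate 1 was highest and replicate 3 lowest for both. Of 10 antigen presentation genes, 7 were higher and 1, Cd74, lower, a call that was lost without CM replicate 1. H2-K1, a class I heavy chain, was at 247.7, 202.9 and 197.9 CPM against 17.49, 16.18 and 16.99, and B2m, its light chain, rose 3.44-fold. Reads of H2 genes can match several near-identical copies.

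Ranked by size, the 10 largest rises among genes above 10 CPM in the higher group mixed muscle with other tissues. The rank is by fitted change, which for genes with few or 0 counts in P12 (Tecrl, Emr1, Msr1, Hp and Ptgds) depends on the prior count of the fit, and the bounds given for Emr1 and Msr1 lie below the fold of Tnnt2. Tecrl, a reticulum protein of heart linked to arrhythmia in humans, had 1004 counts in CM and 0 in P12, at least 503.6-fold higher. Myh6, Myl2 and Myl3 were in this group, as were the macrophage genes Emr1 and Msr1, the latter at least 176.2-fold higher with 358 counts against 0. Hp, haptoglobin, stood at 47.5, 56.38 and 42.64 CPM against 0, 0 and 0.06045 (1727 counts against 1), and Lcn2, lipocalin 2, at 335.3, 368.8 and 295.7 CPM against 0.2332, 0.7891 and 0. Mmp3, a stromal protease, was at 139.7, 123.4 and 115.3 CPM against 0 to 0.1691, and Ptgds, the prostaglandin D synthase, had 1403 counts against 1. The CM libraries were close to one another for Lcn2, Hp and Mmp3, each of which was lowest in replicate 3. Without P12 replicate 2 the log2 fold change of Lcn2 went from 9.86 to 11.35 and that of Mmp3 from 10.51 to 11.67, and that of Myl2 went from 10.36 to 11.29 without P12 replicate 1.

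The largest fall was in Odam, which stood at 29.04, 26.89 and 29.74 CPM in P12 and had 0 counts in CM, at least 334.3-fold lower. Its level in P3 was 0.05 CPM. The other 9 of the largest falls were Slc44a5, Rasgrf1, Cwh43, C1qtnf3, Phlda2, Stmn2, Lrrc15, Bcl11b and Apob. C1qtnf3, a secreted protein of cartilage, fell from 138.7, 133.9 and 118.3 CPM to 2.014, 1.764 and 2.7 (60.69-fold, edgeR adjusted p = 1.35e-10). Bcl11b, a zinc finger factor, fell from 69.26, 76.1 and 69.21 CPM to 2.937, 1.444 and 0.931, and Lrrc15, a membrane protein of matrix-forming cells, from 15.68, 14.04 and 15.48 CPM to 0.2518, 0.0802 and 0.5586. In each of these every CM library was far below every P12 library. All 10 were called higher in P12 than in P3, Stmn2 from 0.56 to 43.64 CPM and Lrrc15 from 0.57 to 15.06 CPM. Over all genes that share was 17.2%. The 10 were picked for falling from the same P12 libraries, which favours such a count, and no conclusion is drawn from it. Among the values near 0 in CM, single libraries moved Slc44a5 (log2 fold change of -6.61, or -7.86 without CM replicate 1 and -6.01 without replicate 2), Cwh43 (-6.11, or -7.73 without CM replicate 3), Rasgrf1 (-6.22, or -6.86 without CM replicate 2), Phlda2 (-5.76, or -6.56 without CM replicate 2) and Lrrc15 (-5.68, or -6.45 without CM replicate 3).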

How the data were processed

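The deposited table holds raw read counts per gene, which the authors made with TopHat2 2.0.13 alignment to mm9 and featureCounts from Subread, per the submitters' processing notes; Subread's version, the annotation and the use of strand are not given in the sources used here, so overlapping and antisense genes cannot be told apart. Total RNA (10 µg) was sequenced on an Illumina GAIIx, per the labels' protocols. The table names 37991 genes, 34551 of them on autosomes. Library sizes were autosomal sums with TMM factors over the 15 libraries. Genes were kept with edgeR's filterByExpr (15680) and tested with its quasi-likelihood test on the 6 libraries (R 4.3.3, edgeR 4.0.16), with Benjamini-Hochberg adjustment and a threshold of 0.05, and against 2-fold with glmTreat. P12 against P3 was tested in a fit of 9 libraries that includes CM. CPM were computed from the counts; the deposited CPM and FPKM were not used. Counting intervals are exact at 95% and, like the floor of 3 counts, cover counting error only.

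The comparison, the genes and the 35 lists were chosen with earlier results of these data known. Genes named are the 10 largest rises and falls (called, no overlap, at least 10 CPM in the higher group, named genes only), up to 4 called members per list with the largest change (at least 1 CPM), all members of the thin filament, smooth muscle, transcription factor and mesoderm lists, and a fixed set of markers; other list members in the text were chosen after their values were seen. Of 642 list symbols 1 was not matched and 5 genes were not autosomal. No pair of libraries agreed within sampling noise: chi-square per degree of freedom was 2.01 to 2.74 between P12 replicates and 8.35 to 21.7 between CM replicates. Alternatives in scaling, filter, test, spread and libraries were run with limma 3.58.1 and DESeq2 1.42.0.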

Additional observations from a re-analysis of the deposited data

How the results depend on the processing

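The 3 counts over all genes (called in each contrast, and past the 2-fold test) stayed within 1.5 times the value reported in every alternative run for them. Some counts within lists moved further without 1 library, as given beside them. Genes called between CM and P12 numbered 8851 to 10326 with single libraries left out, 9140 with DESeq2, 10162 with upper-quartile scaling and 10793 with a fit on all 15 libraries. Upper-quartile scaling moved the median of all genes to -0.11 and the share of calls that were higher from 50.1% to 43.8%. Genes past the 2-fold test numbered 2685 to 3054 with single libraries left out, and P12 against P3 gave 4695 to 5015, or 7886 with sample weights in limma.

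Of 211 named genes tested, 200 kept direction and call in all settings. Mef2c lost its call in 8 settings, Pcp4l1 in 3, Tmod1 in 2 and Tbx20 in 1. Irx5, Smarcd3, Smtn, Lmod1, Kcnmb1, Rgs5 and Nrip2 gained one in at least 1 setting. Single libraries moved 37 named genes by over 1.5 times, mostly where one group was near 0; none of these 37 changed sign or lost its call. Of 630 list medians 46 moved by more than the spread between replicates, and those of 3 of 35 lists changed sign in a setting.

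Replicate numbers did not pair the libraries: correlations of same-numbered deviations ran from -0.0462 to -0.00573. With the replicate number as a block, 9559 genes were called between CM and P12, 2846 past the 2-fold test, and 5942 between P12 and P3. Depth limits genes with a few counts in one group, for which only a bound or a wide interval is given.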

Other observations

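Of 16 endothelial genes tested, 5 were higher in CM, 4 lower and 7 not called. Erg, an endothelial ETS factor, stood at 6.126, 9.464 and 6.982 CPM in CM against 88.27, 78.91 and 95.15 in P12, and Pecam1, a junction protein, at 0.4812 to 0.7448 CPM against 3.323 to 4.171. Flt1, a VEGF receptor, rose with Flt4, Tek, Plvap and Icam2, and stood at 53.71, 58.71 and 39.47 CPM against 20.07 to 20.86. Of 8 skeletal muscle genes tested, 4 were lower and 2 higher, with Pax3, a factor of muscle precursors, at 0.5874 to 1.024 CPM against 2.593 to 3.265. Of 13 epithelial genes, 7 were higher and 5 lower, the higher count falling to 4 without CM replicate 1. Krt7, a keratin also made by mesothelium, rose 19.02-fold, and Epcam, an epithelial adhesion protein, fell 7.81-fold.

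Of 9 pluripotency genes tested, 4 were lower, 3 higher and 2 not called. Sall4 stood at 0.7553, 0.5614 and 1.21 CPM in CM against 6.647, 6.144 and 5.078 in P12, while Klf4, which many tissues express, was at 64.2, 56.78 and 37.89 CPM against 23.79 to 28.53. Of 19 stress and p53 genes, 8 were higher, 6 lower and 5 not called. Atf3, an early stress factor, was at 18.13, 12.51 and 23.27 CPM against 1.088 to 1.458. Trib3 was at 19.64, 7.78 and 5.306 CPM against 1.24 to 2.216, with CM replicate 1 above the others, and its log2 fold change of 2.70 was 1.97 without that library. Of 13 mitochondrial biogenesis genes, 8 were higher and 1 lower, the latter Nrf1 at 25.51 to 28.71 CPM against 38.25 to 43.01.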
